A study of Bos taurus with 8 samples.

Results

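NRF2, the transcription factor encoded by NFE2L2, drives many of the genes that make and recycle glutathione, reduce quinones and peroxides, and export conjugates. The 37 genes of this network described here were chosen by name: NFE2L2 and its repressor KEAP1, quinone and stress targets, enzymes of glutathione synthesis, glutathione peroxidases and transferases, the thioredoxin system, suppliers of NADPH, heme and iron proteins, superoxide dismutases with catalase, and exporters of conjugates. A probe was found for 36 of the 37 genes, and 33 were bright enough to be tested, among 12435 tested genes of 15809 named on the array. Endometrium was biopsied from 8 cows on day 7 after standing estrus (day 0), taken from the horn ipsilateral to the corpus luteum. On day 1 each horn of 4 cows had received 25 mL of fluid with 5 mM methylglyoxal, and each horn of the other 4 cows had received 25 mL at 0 mM. Methylglyoxal is a reactive dicarbonyl that arises beside glycolysis and modifies proteins. Each biopsy came from a different cow and was hybridised to its own one-colour Agilent array, so that n is 4 cows per group. The labels give no breed, age or composition of the fluid without methylglyoxal.

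In unstressed cells KEAP1 binds NRF2 and passes it to the ubiquitin ligase that marks it for breakdown. Electrophiles and oxidants modify cysteines of KEAP1, NRF2 then accumulates, enters the nucleus, pairs with small MAF proteins and binds antioxidant response elements. Glutathione, a tripeptide made by GCLC with GCLM and then GSS, also reacts directly with methylglyoxal, and the adduct is the substrate of the glyoxalase system.

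An array probe of 60 bases reads each transcript, and the sequences below are those of CAT and ABCC4, the genes with the lowest p, and of NQO1, OSGIN1 and GSTM1, whose values are set side by side for more than 1 probe. They are the deposited probe sequences, written 5′ to 3′, with positions on the build HGSC Btau_3.1 as the array files give them. Capitals mark the bases that a pair of probes shares, which is 45 bases for NQO1 and 42 bases for CAT, so that such a pair is not a pair of separate measurements. The other probes are in lower case throughout.
NQO1, brighter probe, chr18:35812049-35812108, minus strand: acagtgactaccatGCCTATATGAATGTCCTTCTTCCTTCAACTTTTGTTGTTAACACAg
NQO1, dimmer probe, chr18:35812035-35812094, minus strand: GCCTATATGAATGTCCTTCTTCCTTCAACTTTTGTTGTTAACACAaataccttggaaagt
CAT, brightest probe, chr15:64725105-64725164, plus strand: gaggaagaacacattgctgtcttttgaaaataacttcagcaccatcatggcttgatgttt
CAT, overlapping probe, chr15:64711606-64711665, plus strand: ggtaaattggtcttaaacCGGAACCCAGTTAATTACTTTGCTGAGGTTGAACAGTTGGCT
CAT, its overlapping partner, chr15:64711624-64711683, plus strand: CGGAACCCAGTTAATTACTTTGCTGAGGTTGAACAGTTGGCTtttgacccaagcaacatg
OSGIN1, brighter probe, chr18:9503494-9503553, plus strand: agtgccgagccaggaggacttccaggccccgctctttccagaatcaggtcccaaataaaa
OSGIN1, dimmer probe, chr18:9502763-9502822, plus strand: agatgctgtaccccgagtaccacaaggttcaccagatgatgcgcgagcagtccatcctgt
ABCC4, tested probe, chr12:68783867-68783902, minus strand: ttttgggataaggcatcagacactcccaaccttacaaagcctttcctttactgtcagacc
GSTM1, brightest probe, chr3:36382444-36382503, minus strand: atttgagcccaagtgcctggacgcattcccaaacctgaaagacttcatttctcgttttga
GSTM1, probe of another accession, chr3:36442684-36442743, minus strand: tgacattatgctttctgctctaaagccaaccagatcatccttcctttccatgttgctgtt

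The arrays were similar in brightness, with 68.3% to 73.3% of noncontrol probes well above background, 75th percentiles of 1032 to 1456 intensity units and 0 saturated spots. Levels below are log2 processed signals from which that array's own 75th percentile was subtracted, each gene is read by its brightest probe, and a difference is 5 mM minus 0 mM with its standard error (SE). The groups were compared with limma, and p-values were adjusted with the Benjamini-Hochberg method over all 31108 tested probes. The smallest adjusted p was 0.913, so that 0 probes passed a threshold of 0.05. An unadjusted p under 0.05 was found for 595 probes (1.91%), and 166 of them (0.534%) were also at least 2-fold apart. The number of arrays limits the precision. In such bulk tissue, fewer cells of a type and less RNA per cell cannot be told apart.

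The biopsy labelled 5 mM replicate 1 stood apart from the other 7. The mean deviation of 14 epithelial marker genes from their 8-array means was -3.17 there, against 0.28 to 0.80 on the other arrays, and all 14 were lowest there. EPCAM, an adhesion protein of epithelial cells, was at -1.26 on that array and between 4.33 and 4.83 on the other 7, and KRT8, an epithelial keratin, was at 0.62 there and between 3.35 and 4.16 elsewhere. The mean deviation of 12 smooth muscle markers was 2.27 there, 1.45 on 5 mM replicate 3 and 1.28 on 0 mM replicate 1, and lay between -1.54 and -0.74 on the other 5. Of its defining genes, DES was at 4.95 and ACTA2 at 6.90 on 5 mM replicate 1, the highest values of the 8 arrays. Leukocyte markers, 14 in number, had means of -0.81 to -0.03 on the 5 mM arrays and -0.25 to 0.69 on the 0 mM arrays, although their defining member PTPRC differed by 0.15 ± 0.15 (SE). Values without this biopsy are therefore given below, and the part of tissue composition in the members' differences was not tested.

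The differences of the 33 tested genes were small and went both ways. Values were higher in the 5 mM group for 16 genes and lower for 17, and the median difference was -0.024, against 0.010 over all tested genes, 51.6% of which were above 0. Only CAT and ABCC4 had an unadjusted p under 0.05 in limma, 2 of 33, where 1.88% of all tested genes did. CAT was the single gene of the 33 whose groups did not overlap, against 1.62% of all tested genes, and 0 of the 33 were at least 2-fold apart, against 6.28%. The difference was under 0.5 in size for 30 genes, and for 23 genes the 95% interval of the difference lay inside 2-fold either way. These 2 counts were not taken over all tested genes, whose median SE was 0.241, against 0.250 for the 33. Counted by probe, 2 of 81 tested probes of these genes (2.47%) had an unadjusted p under 0.05. In limma 0 of the 33 genes had an adjusted p under 0.05.

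**Figure D1:**
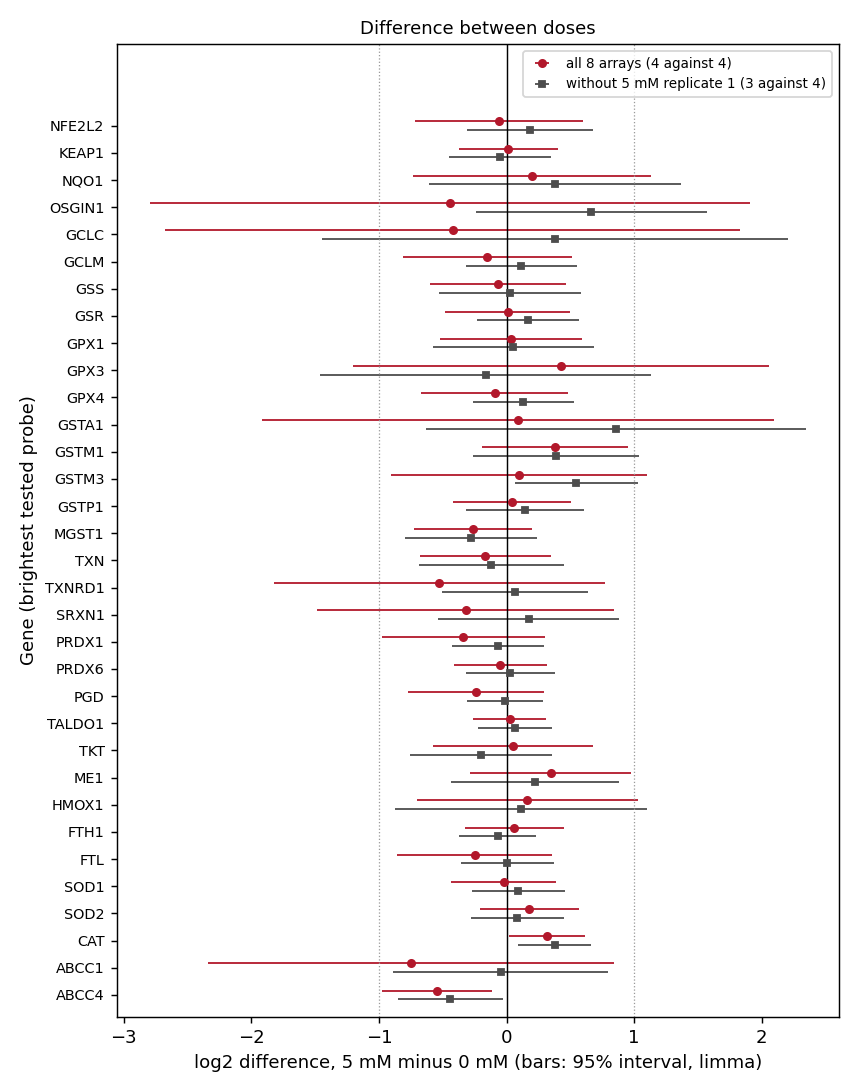
Difference in log2 signal, 5 mM minus 0 mM, of each tested gene with all 8 arrays (red circles) and without 5 mM replicate 1 (grey squares); bars are 95% intervals from limma and dotted lines mark 2-fold. Most red points lie within 0.5 of 0, and the wide red bars of OSGIN1, GCLC, TXNRD1 and ABCC1 narrow when that biopsy is left out.

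By their brightest probes the regulators gave nearly equal means. NFE2L2 was at 1.30, 2.20, 2.48 and 2.13 in the 5 mM group, against 1.65, 2.07, 2.44 and 2.20 in the 0 mM group. The lowest value in each group was that of replicate 1, and the groups overlapped, with a difference of -0.06 ± 0.28 that became 0.18 ± 0.21 without 5 mM replicate 1. The other 3 NFE2L2 probes differed by -0.28 to -0.23. All 4 tested probes were thus lower in the 5 mM group with all arrays, and the change of sign is given for the brightest only. By the probe at -0.23 ± 0.19, 5 mM replicate 1 was at 1.69, above replicates 3 and 4 at 1.47 and 1.36. KEAP1 averaged 3.53 ± 0.24 in the 5 mM group, against 3.51 ± 0.17 in the 0 mM group (SD, n = 4 each), a difference of 0.01 ± 0.17 whose 95% interval ran from -0.37 to 0.40. Its other 3 probes differed by 0.13 to 0.18.

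NQO1, which reduces quinones by 2 electrons and is among the most widely used readouts of NRF2, was at 0.86, 2.05, 1.62 and 1.01 in the 5 mM group and at 0.38, 1.87, 1.68 and 0.82 in the 0 mM group. Both groups held 2 high and 2 low cows and overlapped almost fully. The difference was 0.20 ± 0.40 (unadjusted p in limma 0.633), and the overlapping second probe gave 0.21 ± 0.29. By slide, the array carrier that held several biopsies, the difference was 0.48, 0.27 and 0.50 within slides 1, 2 and 3, and with slide as a block it was 0.41 with an unadjusted p of 0.066 in limma. The 3 slides thus gave the same sign, while the spread between cows of a group was larger than the difference.

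OSGIN1, an oxidative stress-induced growth inhibitor, varied most among the 33 genes, with a range of 5.38 over the 8 arrays. It was at -4.35, -0.12, -0.68 and 1.03 in the 5 mM group, against -0.68, -0.82, -0.58 and -0.27 in the 0 mM group. The 5 mM group held both the lowest value, in replicate 1, and the highest, in replicate 4, while the 0 mM cows lay close together. The difference was -0.44 ± 1.02 by this probe and 0.15 ± 0.89 by the dimmer probe, which does not overlap it. The dimmer probe was at -7.65, -5.12, -4.53 and -3.00 in the 5 mM group and at -5.46, -5.53, -5.58 and -4.33 in the 0 mM group. It thus had its lowest and highest values in the same 2 cows as the brighter probe. Its signal was near background, with 3 arrays of the 5 mM group, against 4 of the 0 mM group, well above it. Without 5 mM replicate 1 the difference of the brighter probe was 0.66 ± 0.39, with an unadjusted p of 0.13 in limma.

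**Figure D2:**
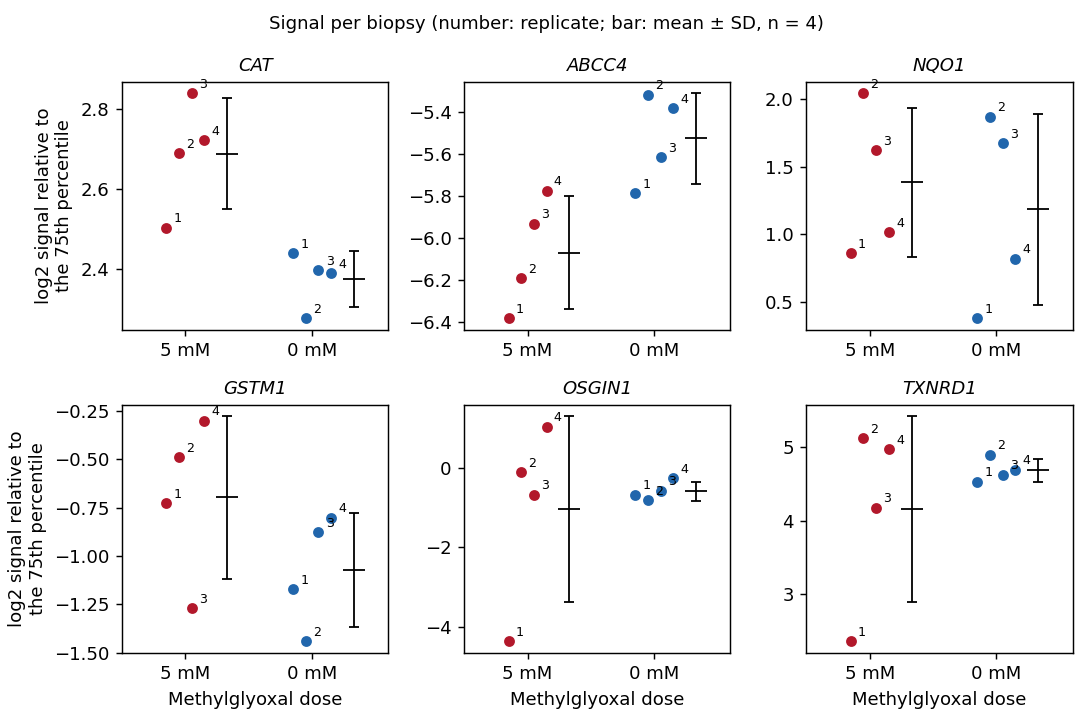
Log2 signal relative to the array's 75th percentile of CAT, ABCC4, NQO1, GSTM1, OSGIN1 and TXNRD1 in each biopsy, 5 mM (red) left of 0 mM (blue); numbers are replicates, and bars are mean ± SD (n = 4), with a separate axis per gene. CAT shows 4 red points above 4 blue ones, whereas OSGIN1 and TXNRD1 show 1 low 5 mM cow, replicate 1.

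Of the 5 genes of glutathione synthesis and recycling, 4 were tested, 1 was higher and 3 were lower in the 5 mM group, with 0 at an unadjusted p under 0.05 in limma. GCLC, the catalytic subunit of the rate-limiting ligase, was at -8.12, -4.74, -6.19 and -3.81 in the 5 mM group and at -6.57, -6.08, -4.10 and -4.41 in the 0 mM group. These levels are near background, with 3 arrays of each group well above it, and the difference was -0.42 ± 0.98. With normexp, another background correction, it was 0.085. GCLM, the modifier subunit, was at -1.83, -0.42, -1.05 and -0.84 in the 5 mM group, against -0.96, -0.77, -0.75 and -1.05 in the 0 mM group. The 5 mM group again held the lowest and the highest value, and the difference was -0.15 ± 0.29, with an unadjusted p of 0.611 in limma. GSS, which adds glycine to complete glutathione, differed by -0.07 ± 0.23. The description line of its probes names another gene, while their accession belongs to GSS in RefSeq. GSR, which returns oxidised glutathione to its reduced form at the cost of NADPH, averaged 0.81 ± 0.41 in the 5 mM group, against 0.80 ± 0.07 in the 0 mM group (SD, n = 4 each), a difference of 0.01 ± 0.21. SLC7A11, the cystine importer that feeds the pathway, was well above background on 0 arrays of either group and was not tested.

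Glutathione peroxidases use glutathione to reduce peroxides. GPX1, the cytosolic form, stood at 1.72, 1.75, 1.79 and 1.86 in the 5 mM group, against 1.06, 1.71, 2.15 and 2.07 in the 0 mM group. By this probe the 5 mM cows lay within the range of the 0 mM cows, and the difference was 0.03 ± 0.24. By the next brightest GPX1 probe, 5 mM replicates 3 and 4, at 1.27 and 1.34, lay below all 0 mM cows. The difference there was -0.15 ± 0.22, and the dimmest probe gave -0.05 ± 0.29. GPX4, which reduces lipid hydroperoxides in membranes, averaged 2.71 ± 0.46 and 2.80 ± 0.23 (SD, n = 4 each) in the 5 mM and 0 mM groups, a difference of -0.09 ± 0.25. GPX3, the secreted form, was near background, with 2 arrays of each group well above it. It was at -4.46, -7.90, -5.63 and -6.91 in the 5 mM group and at -7.09, -7.21, -6.18 and -6.12 in the 0 mM group. Its highest value was that of 5 mM replicate 1 and its lowest that of 5 mM replicate 2, and the difference of 0.43 ± 0.71 was -0.16 ± 0.55 without replicate 1. No probe was found for GPX2 by name.

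Glutathione transferases join glutathione to electrophiles. Of the 5 genes, 4 were higher and 1 was lower in the 5 mM group, 0 of them at an unadjusted p under 0.05 in limma. GSTM1, a mu-class transferase, was at -0.73, -0.49, -1.27 and -0.30 in the 5 mM group, against -1.17, -1.44, -0.88 and -0.80 in the 0 mM group. Of the 5 mM cows, 3 lay above all 0 mM cows and replicate 3 lay among them. The difference was 0.38 ± 0.25, with an unadjusted p of 0.167 in limma and a 95% interval of -0.20 to 0.95. All 7 tested GSTM1 probes were higher in the 5 mM group, the other 6 by 0.38 to 0.54. These probes carry accessions that RefSeq now lists as LOC327709 or LOC783879, so that they may read more than 1 mu-class gene.

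GSTM3, another mu-class gene, was at 2.67, 4.55, 4.31 and 4.58 in the 5 mM group and at 3.75, 3.57, 4.30 and 4.10 in the 0 mM group. Replicate 1 was far below every other cow, while the other 3 cows given 5 mM were above all 4 given 0 mM. For 5 mM replicate 3 this was narrow, at 4.309 against 4.303 for 0 mM replicate 3. The difference was 0.10 ± 0.43, and without replicate 1 it was 0.55 ± 0.21, with an unadjusted p of 0.032 and an adjusted p of 0.99995 in limma. Its second tested probe differed by -0.04 with all arrays. There 5 mM replicate 3, at 3.65, lay below 0 mM replicates 1 and 3, at 3.76 and 3.95, so that the groups overlapped without replicate 1 too.

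The probe named GSTA1 in the files, an alpha-class transferase, carries an accession that RefSeq now lists as GSTA2. It was at -7.60, -4.20, -4.71 and -4.68 in the 5 mM group, against -5.72, -5.46, -3.69 and -6.68 in the 0 mM group, near background, with 3 and 4 arrays well above it. The difference was 0.09 ± 0.87. A pair of tested probes named GSTA3 in the files carries the accession that RefSeq lists as GSTA1, and their differences were -0.61 ± 1.02 and -0.09 ± 0.75. GSTP1, the pi-class form, averaged 4.62 ± 0.36 in the 5 mM group, against 4.57 ± 0.16 in the 0 mM group (SD, n = 4 each), with a 95% interval of the difference from -0.42 to 0.51. Its accession is LOC281806 in RefSeq. MGST1, a membrane-bound transferase, differed by -0.26 ± 0.20, with an unadjusted p of 0.221 in limma.

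All 5 genes of the thioredoxin system were lower in the 5 mM group, by 0.05 to 0.53, with a median of -0.32 and 0 at an unadjusted p under 0.05 in limma. Without 5 mM replicate 1 the median was 0.031. TXNRD1, the reductase that recharges thioredoxin with NADPH, was at 2.36, 5.11, 4.17 and 4.97 in the 5 mM group and at 4.53, 4.89, 4.62 and 4.69 in the 0 mM group. Replicate 1 was lowest, replicates 2 and 4 were above all 0 mM cows, and the difference of -0.53 ± 0.56 was 0.07 ± 0.24 without replicate 1. SRXN1, which repairs overoxidised peroxiredoxins, was at -0.44, 1.42, 1.02 and 2.14 in the 5 mM group, against 0.87, 1.64, 1.45 and 1.45 in the 0 mM group. Its lowest and highest values were again those of 5 mM replicates 1 and 4, and the difference of -0.32 ± 0.51 was 0.17 ± 0.30 without replicate 1. PRDX1, a peroxiredoxin that uses thioredoxin, was at 0.67, 1.92, 1.64 and 1.73 in the 5 mM group and at 1.94, 1.95, 1.86 and 1.57 in the 0 mM group. Apart from replicate 1 the groups overlapped, and the difference was -0.34 ± 0.28, with an unadjusted p of 0.257 in limma, and -0.065 ± 0.15 without replicate 1. TXN, thioredoxin itself, differed by -0.17 ± 0.22 and PRDX6, which uses glutathione, by -0.05 ± 0.16.

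Suppliers of NADPH, the reducing power for GSR and TXNRD1, were 3 higher and 1 lower. ME1, the cytosolic malic enzyme, was at 0.03, -0.39, -0.12 and -0.87 in the 5 mM group, against -0.84, -0.27, -0.43 and -1.20 in the 0 mM group. The 2 highest cows were in the 5 mM group, the groups overlapped, and the difference was 0.35 ± 0.27, with an unadjusted p of 0.242 in limma; the second probe gave 0.50. PGD, an oxidative pentose phosphate enzyme, averaged 3.95 ± 0.46 in the 5 mM group, against 4.19 ± 0.09 in the 0 mM group (SD, n = 4 each), and its difference of -0.24 ± 0.23 was -0.014 ± 0.13 without replicate 1. TALDO1 and TKT belong to the nonoxidative branch of that pathway. TALDO1 varied least among the 33 genes, with a range of 0.24 over the 8 arrays and a difference of 0.03 ± 0.12. TKT differed by 0.05 ± 0.27, with no value for 5 mM replicate 3, whose spot carried an outlier mark.

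HMOX1 breaks down heme, and ferritin, built of FTH1 and FTL, stores the iron. HMOX1 was at 2.80, 2.16, 3.22 and 2.44 in the 5 mM group and at 3.47, 1.98, 2.49 and 2.04 in the 0 mM group. The highest cow was 0 mM replicate 1, followed by 5 mM replicates 3 and 1. These are the 3 cows with the highest smooth muscle means, though in the reverse order. The part of muscle in the HMOX1 values was not tested. The difference was 0.16 ± 0.38, with a 95% interval of -0.70 to 1.03. FTL was at 3.87, 4.87, 4.78 and 5.03 in the 5 mM group, against 4.73, 5.15, 4.75 and 4.93 in the 0 mM group. Its difference of -0.25 ± 0.26, with an unadjusted p of 0.371 in limma, was 0.0042 without replicate 1 by this probe. All 5 tested FTL probes were lower in the 5 mM group, the others at -0.65 to -0.025. By the probe at -0.65 ± 0.38, 5 mM replicate 1 was at 4.55, above replicates 3 and 4 at 3.37 and 3.82. FTH1 averaged 6.59 ± 0.28 in the 5 mM group, against 6.53 ± 0.09 in the 0 mM group (SD, n = 4 each).

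CAT, catalase, which splits hydrogen peroxide in peroxisomes, had the clearest separation of the 33 genes. It was at 2.50, 2.69, 2.84 and 2.72 in the 5 mM group, against 2.44, 2.28, 2.40 and 2.39 in the 0 mM group. All 4 cows given 5 mM lay above all 4 given 0 mM, although replicate 1 did so narrowly. The difference was 0.31 ± 0.13, with a 95% interval of 0.016 to 0.61, an unadjusted p of 0.041 and an adjusted p of 0.913 in limma, so that it did not pass the threshold over all probes. It was 0.06, 0.35 and 0.39 within slides 1, 2 and 3, and 0.29 with slide as a block, where the unadjusted p was 0.075. Without 5 mM replicate 1 it was 0.38 ± 0.12, with an unadjusted p of 0.016 in limma. With any other single array left out, the unadjusted p in limma was not under 0.05, while the difference stayed at 0.26 or above. The difference was 0.27 with quantile normalization and 0.43 with normexp, with unadjusted p of 0.084 and 0.16 in limma.

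The other 3 CAT probes gave 0.09 ± 0.13, 0.30 ± 0.19 and 0.08 ± 0.16, and their groups overlapped. The overlapping pair printed above shares 42 bases yet gave the last 2 of these values. Its partner at 0.30 was at -1.04, -0.37, -0.55 and -0.58 in the 5 mM group and at -0.85, -1.00, -1.19 and -0.69 in the 0 mM group. There the cow given 5 mM as replicate 1 was among the lowest and the other 3 were above all cows given 0 mM. All 4 probes were higher in the 5 mM group, but the absence of overlap rests on the brightest. HBB, a globin gene of red blood cells, which are rich in catalase, was 1.31 ± 1.33 higher in the 5 mM group, near background with 3 arrays of each group well above it, and HBA, another globin gene, was 1.02 ± 0.69 higher. HBG, a further globin gene, differed by 0.08 ± 1.36, whereas the erythroid marker AHSP was lower, at -0.24 ± 0.20 (-0.22 without 5 mM replicate 1). The median difference of these 4 erythroid markers was 0.55, and 0.95 without 5 mM replicate 1. On 5 mM replicate 3, the array with the highest CAT, HBB had its lowest value, -8.15. The part of blood in the CAT difference was not tested.

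SOD1, the cytosolic superoxide dismutase, averaged 4.47 ± 0.27 in the 5 mM group, against 4.49 ± 0.17 in the 0 mM group (SD, n = 4 each), a difference of -0.02 ± 0.18. Its other 3 probes differed by -0.75 to -0.08, and the probe at -0.75 ± 0.48 had an unadjusted p of 0.158 in limma. SOD2, the mitochondrial form, averaged 1.15 ± 0.27 in the 5 mM group, against 0.98 ± 0.12 in the 0 mM group (SD, n = 4 each), a difference of 0.18 ± 0.17 (unadjusted p in limma 0.316). SOD3, the extracellular form, was well above background on 0 arrays of either group.

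Among the exporters, ABCC4, which carries cyclic nucleotides and conjugates out of cells, had the lowest unadjusted p of the 33 genes. It was at -6.38, -6.19, -5.93 and -5.78 in the 5 mM group, against -5.79, -5.32, -5.62 and -5.38 in the 0 mM group. The groups overlapped only in that the highest 5 mM cow lay just above the lowest 0 mM cow. The difference was -0.54 ± 0.19, with a 95% interval of -0.97 to -0.12, an unadjusted p of 0.019 and an adjusted p of 0.913 in limma. Within slides 1, 2 and 3 it was -0.60, -0.72 and -0.47. With slide as a block it was -0.60, with an unadjusted p of 0.0057 in limma, and no probe passed the adjusted threshold in that fit either. The signal was near background, with 3 arrays of the 5 mM group, against 4 of the 0 mM group, well above it, and with normexp the difference turned to 0.067. RefSeq lists the accession of this probe as LOC515333, and the other 2 ABCC4 probes were too dim to test.

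ABCC1, a pump for glutathione conjugates, was at -1.98, 1.39, 0.24 and 0.91 in the 5 mM group and at 0.13, 1.19, 1.08 and 1.16 in the 0 mM group. Replicate 1 was lowest in each group, and the difference of -0.75 ± 0.69 was -0.045 ± 0.36 without 5 mM replicate 1. ABCC2, an apical pump of the same family, was well above background on 1 array of each group and was not tested.

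Across the network the biopsy labelled 5 mM replicate 1 gave the lowest of the 8 values for 19 of the 33 genes (57.6%), against 30.2% of all tested genes. It gave the highest for 6 genes (18.2%), KEAP1, GPX3, TKT, ME1, FTH1 and SOD2, against 33.1% of all tested genes. For 9 of the 19, including OSGIN1, GCLC, ABCC1, GSTA1 and TXNRD1, it lay at least 1 log2 unit below the mean of the other 7, the largest gap being -4.05 for OSGIN1. The epithelial marker mean was lowest on the same array, as given above, and its part in these values was not tested. The array of 5 mM replicate 4 was highest for 8 genes (24.2%), OSGIN1, SRXN1, GSR, GSS, GCLC, GSTM1, GSTM3 and SOD1, against 10.8% of all tested genes. Without replicate 1, 23 of the 33 genes were above 0 and 10 below, the median difference was 0.085 against 0.011 over all tested genes, and 15 genes changed sign. In that comparison CAT, GSTM3 and ABCC4, 3 of 33, had an unadjusted p under 0.05 in limma, where 1.88% of all tested genes did, and 52.5% of all tested genes were above 0. Further genes whose difference moved by more than 1.5 times without replicate 1 were GCLC at 0.38, GCLM at 0.11, GSR at 0.17, GPX4 at 0.13, GSTA1 at 0.86, GSTP1 at 0.15 and NQO1 at 0.38. KEAP1 was at -0.051, TKT at -0.20, FTH1 at -0.071, SOD1 at 0.093, SOD2 at 0.085, PRDX6 at 0.031, TALDO1 at 0.065, ME1 at 0.22, GSS at 0.029 and GPX1 at 0.053.

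**Figure D3:**
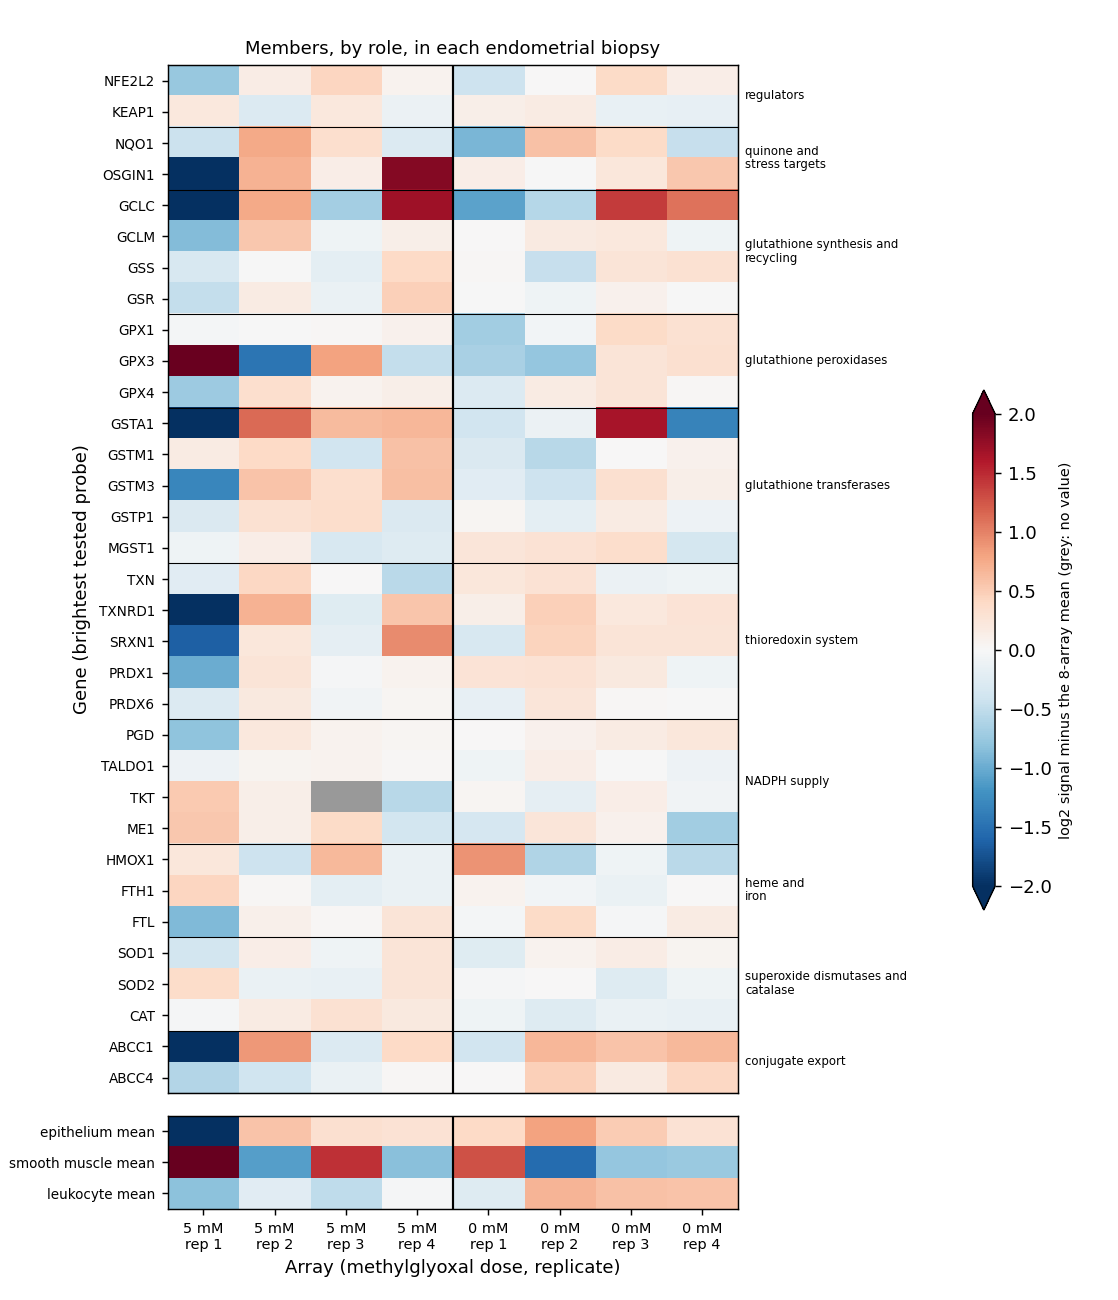
Deviation of each tested gene from its 8-array mean (log2, colour; values beyond 2 share the end colour, grey is a missing value), by role and by array, with mean deviations of 3 marker lists below. The first column, 5 mM replicate 1, is blue for most genes and for the epithelial mean, whereas CAT is pale on every array.

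Further genes of the same pathways, 112 in 9 lists, gave 93 tested genes, of which 38 were higher and 55 lower in the 5 mM group, with a median difference of -0.069 against 0.010 over all tested genes. Without 5 mM replicate 1 their median was 0.0016. Of the 93, 1 gene had an unadjusted p under 0.05 in limma, where 1.88% of all tested genes did: PIR, which encodes pirin, an iron-binding nuclear protein. It was 0.34 ± 0.15 higher, with an unadjusted p of 0.049 and an adjusted p of 0.913. NRF2 partners and repressors were 6 higher and 6 lower, and the gene with the lowest p was NFE2L3, an NRF2 relative, at -0.60 ± 0.68 and 0.0016 without 5 mM replicate 1. Genes of glutathione turnover were 7 higher and 8 lower, led, by lowest p, by CTH, which makes cysteine, at 0.82 ± 0.46.

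Other peroxidases and peroxiredoxins were 5 higher and 6 lower, led by GPX5 at -1.04 ± 0.69 (-0.34 without 5 mM replicate 1), and other transferases were 4 higher and 6 lower, led by GSTO1, an omega-class transferase, at -0.49 ± 0.23. The remaining thioredoxin genes were 7 higher and 1 lower, led by the sestrin gene SESN1 at 0.62 ± 0.44 (0.22 without that biopsy), and their median of 0.057 was 0.0017 without it. Other NADPH suppliers were 1 higher and 6 lower, led by NADK, which phosphorylates NAD, at -0.33 ± 0.25 (-0.11 without that biopsy). Heme, iron and metal genes were 4 higher and 7 lower, led by BLVRB, a biliverdin reductase, at 0.30 ± 0.14. Reductases and exporters linked to NRF2, PIR among them, were 3 higher and 10 lower. NADPH oxidase genes were 1 higher and 5 lower, led by RAC2, a leukocyte GTPase, at -0.70 ± 0.31 (-0.39 without that biopsy). The leukocyte marker list was 13 of 14 lower in the 5 mM group, whereas its defining member PTPRC was 0.15 ± 0.15 higher. The part of leukocytes in the NADPH oxidase values was not tested.

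GLO1, which uses glutathione to detoxify methylglyoxal, averaged 0.66 ± 1.67 in the 5 mM group, against 0.98 ± 1.18 in the 0 mM group (SD, n = 4 each). Its highest value in each group was that of replicate 1, at 3.03 for 5 mM and 2.51 for 0 mM, and the difference was -0.32 ± 0.89. It was -1.11 without 5 mM replicate 1 and -0.045 with slide as a block.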

How the data were processed

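Total RNA from 8 endometrial biopsies, 1 per cow, was extracted with an RNeasy kit and labelled with Cy3, per the labels' protocols. The deposited spot intensities were background-subtracted and detrended by Agilent Feature Extraction and not scaled across arrays, per the file headers. The headers of all 8 array files give version 11.5.1.1 of that software, whereas the submitters' processing notes give 10.5.1.1. The deposited value table holds log2 values centred per probe, as found from its correlation with the intensities (Pearson's r across 43653 probes at least 0.9995), and served as an alternative only.

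Control spots and spots with an outlier mark were left out, spots of a probe were averaged, and each array's 75th percentile was subtracted on the log2 scale. Probes well above background on at least 4 of 8 arrays were tested (31108, with 461 missing values) with limma 3.58.1 in R 4.3.3, with a threshold of 0.05 after Benjamini-Hochberg adjustment. Symbols came from the files, updated through a RefSeq table of assembly ARS-UCD2.0: of 43653 probes 32914 had a symbol, 22205 through an accession, 9853 by symbol, 402 by synonym and 454 as given. For genes with more than 1 probe, the probe of highest mean over the 8 arrays was taken.

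The genes described and the lists were chosen with earlier results of these data known. Genes were named by these rules: each of the 37, those with the lowest p per role and any at an unadjusted p under 0.05 with values per array, and for each further list any gene at an unadjusted p under 0.05 or else the one with the lowest p, with GLO1, defining markers and probes that differed in sign by more than 0.3. Marker lists for fibroblasts, endothelium, neutrophils and erythroid cells were also computed: their tested genes were 7 higher and 3 lower, 4 and 5, 4 and 3, and 3 and 1. Simulated data had 200 of 31108 probes changed. A log2 change of 1 was recovered for 0% after adjustment and 84% at an unadjusted p under 0.05, and a change of 2 for 67% and 93.5%. The simulated noise was independent between probes, without shared tissue composition or an outlying biopsy, so these shares need not hold for the real arrays. Of unchanged simulated probes 4.97% and 4.87% had an unadjusted p under 0.05 in limma, against 1.91% of all probes on the real arrays. Alternatives were other scalings (quantile, median), another background correction (normexp, offset 50), removal of the filter or its extension to all 8 arrays, array weights, trended and robust eBayes, the deposited table, the mean over probes, an adjusted threshold of 0.1, the replicate or the slide as a block, fits within each slide, and leaving out each array in turn. The first replicates of both groups shared slide 1, slide 2 carried 5 mM replicate 2 with 0 mM replicates 2 and 3, and slide 3 carried 5 mM replicates 3 and 4 with 0 mM replicate 4. Exons and untranslated regions are not given, since no genome of the array's build was used here.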

Additional observations from a re-analysis of the deposited data

Results flagged for a closer look

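Of 73 groups of 4 arrays examined, 5 held a value far from the other 3, where chance marks about 1 group in 20. The gap to the nearest value, as a share of the group's range, was compared with Dixon's 95% critical value for 4 samples. In the 5 mM group replicate 1 was far below the others for GSTA1 (0.8502), for GSTM3 (0.86) and for the mean of the epithelial markers (0.9238). In the 0 mM group replicate 1 was far below the others for ABCC1 (0.9041) and for the mean of the leukocyte markers (0.8772).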

How the results depend on the processing

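The count of probes past the adjusted threshold was 0 in every alternative run with a test, and at an unadjusted p under 0.05 it was 595 with all arrays. The count of probes that were also at least 2-fold apart, 166, was 84 with normexp, 361 with no filter, 263 with slide as a block, 475 and 538 within slides 2 and 3, 352 with the replicate block, and 130 to 557 with 1 array left out. Leaving out 5 mM replicate 2 gave 557, leaving out 5 mM replicate 4 gave 409, and leaving out 0 mM replicate 1 gave 327. The count of the 33 genes at an unadjusted p under 0.05 in limma was 2 with all arrays, CAT and ABCC4. It was 1, ABCC4, with quantile normalization, no filter, slide as a block, the replicate block and the mean over probes. With the filter on all 8 arrays it was 1, CAT, since ABCC4 did not pass that filter. The count was 0 with normexp. With 1 array left out it was 0 to 3, 0 being without 0 mM replicate 2. Without 0 mM replicate 4 the gene was MGST1. ABCC4 was among the genes in the remaining fits of this kind, and CAT only without 5 mM replicate 1. The genes' median difference of -0.024 was -0.36 within slide 1 and -0.11 to 0.085 with 1 array left out. The replicate numbers did not pair the cows, since by the labels each biopsy came from a different cow. Deviations of same-numbered arrays correlated at 0.40, 0.36, -0.30 and 0.31 across probes. Those of differently numbered arrays of the 2 groups correlated at -0.49 to 0.33. Same-numbered arrays shared a slide for replicates 1, 2 and 4 but not for replicate 3, so these correlations cannot separate number from slide.

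The sign of the difference held in every alternative for GSTM1 and CAT, and turned in at least 1 for the other 31 genes. It turned with quantile normalization for KEAP1 (-0.040), GSR (-0.0023), GSTP1 (-0.028), TALDO1 (-0.029), TKT (-0.036) and FTH1 (-0.10), and with a median shift for PRDX6 (0.0054) and SOD1 (0.032). With normexp it turned for GCLC (0.085), GSS (0.015), GSTM3 (-0.053), SOD1 (0.042) and ABCC4 (0.067). With array weights it turned for NFE2L2 (0.049), KEAP1 (-0.033), OSGIN1 (0.54), GCLC (0.17), GCLM (0.082), GSS (0.022), GPX1 (-0.047), GPX3 (-0.25), GPX4 (0.059), TXNRD1 (0.0028), SRXN1 (0.11), PRDX6 (0.010), TKT (-0.18), FTH1 (-0.030) and SOD1 (0.066). It turned with the deposited table for TKT (-0.043), with slide as a block for GSR (-0.0077), and with the mean over probes for GPX1 (-0.056) and TKT (-0.013). Within slide 1, with 1 array per group and no test, it turned for GSR (-0.47), GSTA1 (-1.88), GSTM3 (-1.07), GSTP1 (-0.33), TALDO1 (-0.017) and HMOX1 (-0.67). Within slide 2 it turned for KEAP1 (-0.28), OSGIN1 (0.58), GCLC (0.35), GCLM (0.35), GSS (0.10), GPX1 (-0.18), GPX3 (-1.20), GPX4 (0.12), TXN (0.32), TXNRD1 (0.36), PRDX1 (0.021), PRDX6 (0.065), PGD (0.087), TALDO1 (-0.0058), ME1 (-0.044), HMOX1 (-0.072), SOD1 (0.022), SOD2 (-0.0048) and ABCC1 (0.25). Within slide 3 it turned for NFE2L2 (0.11), OSGIN1 (0.44), GCLM (0.10), GPX1 (-0.24), GPX3 (-0.15), GPX4 (0.076), MGST1 (0.061), SRXN1 (0.12), PRDX1 (0.11), TKT (-0.49), FTH1 (-0.16) and SOD1 (0.032). Within slides 2 and 3 a single array of 1 group is assumed to vary like the other group.

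With 1 array left out the sign held for 10 genes and turned for 23. Their ranges were -0.21 to 0.18 for NFE2L2, -0.051 to 0.11 for KEAP1, -0.070 to 0.43 for NQO1, -1.13 to 0.66 for OSGIN1, -1.06 to 0.38 for GCLC, -0.36 to 0.11 for GCLM, -0.23 to 0.029 for GSS, -0.15 to 0.17 for GSR, -0.20 to 0.17 for GPX1, -0.16 to 0.98 for GPX3, -0.22 to 0.13 for GPX4, -0.34 to 0.86 for GSTA1, -0.087 to 0.55 for GSTM3, -0.067 to 0.15 for GSTP1, -0.85 to 0.068 for TXNRD1, -0.69 to 0.17 for SRXN1, -0.13 to 0.031 for PRDX6, -0.0026 to 0.076 for TALDO1, -0.20 to 0.34 for TKT, -0.026 to 0.49 for HMOX1, -0.071 to 0.14 for FTH1, -0.38 to 0.0042 for FTL and -0.11 to 0.093 for SOD1. For changes of setting other than leaving out an array, the cause was not tested. Signals near background limit GCLC, GPX3, GSTA1, ABCC4 and the dimmer probe of OSGIN1.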
